A study of Mus musculus with 14 samples.

Results

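Estradiol-treated failing left ventricles (LV) were compared with sham-operated LV in their microRNA (miR) content, to describe which miR differences of the pressure-overloaded heart were present after estradiol. The comparison was chosen by the labels of the arrays. It used the 5 HF+E2 mice and the 4 sham mice, 9 of the 14 mice measured, and all 520 mouse miRs with values. All mice were male C57Bl/6 mice of 3 to 4 months. The HF+E2 mice underwent transverse aortic constriction (TAC), a banding of the aorta that loads the LV with pressure, reached heart failure (HF) 6 to 8 weeks later, and then carried a subcutaneous pellet that released 0.03 mg estradiol (E2) per kg per day for 10 days. The 5 HF mice underwent TAC and were killed once HF was reached, without E2. The 4 sham mice had sham surgery without E2. No sham mice with E2 were among the 14, so the HF+E2 values carry the effects of TAC, of E2 and of the later time of death together, and these cannot be told apart.

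MiRs are short RNAs that guide the Argonaute protein to messenger RNAs, mostly through bases 2 to 8 of the miR, its seed, and lower the stability or translation of those messengers. In the heart, miRs from introns of the myosin heavy chain genes follow the switch between the α and β myosins, and miRs of fibroblasts and their matrix, such as the cluster of miR-199a and miR-214, mark remodelling. E2 acts through nuclear estrogen receptors, which regulate the transcription of genes for proteins and for miRs. LV RNA holds all cell types of the ventricle, so that more cells of a type and more RNA per cell cannot be told apart.

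Each mouse was measured on 1 single-channel array, and values are log2 intensities that the authors scaled with 1 constant per array. The constant averaged 0.17 ± 0.46 on the HF+E2 arrays (SD, n = 5), -0.45 ± 0.23 on the HF arrays (n = 5) and 0.34 ± 0.16 on the sham arrays (n = 4). HF+E2 1 had a constant of -0.62, and the other HF+E2 arrays had 0.23 to 0.52. After scaling, the 28 negative control probes averaged 4.62 ± 0.11 in HF+E2, 3.85 ± 0.27 in HF and 4.64 ± 0.22 in sham, so the background level was close between HF+E2 and sham and lower in HF. Each HF+E2 array and each sham array had 501 to 511 of the 520 miRs above its detection threshold. A miR was taken as saturated on an array where at least 2 of its 3 spots reached an intensity of 65000, which held for 21 to 36 miRs on the HF+E2 arrays and 25 or 26 on the sham arrays. The 20 miRs that were saturated on all 9 arrays, among them miR-1 and miR-133a, the main miRs of cardiac muscle, gave log2 fold changes of -0.17, which is the difference between the mean constants of the groups (-0.17) and holds no measure of their change. A further 17 miRs were saturated on some of the 9 arrays. Dim miRs, with a mean over the 9 arrays less than 2 log2 units above the mean threshold, numbered 232, which left 251 that were neither saturated nor dim. Codes in the column names of the spot intensities, whose meaning is not stated, put the 4 sham arrays in a group of their own, so code group and treatment cannot be told apart. A second code in these names was 650 for HF+E2 1 and HF 2 and 600 for all other arrays. HF+E2 1 had 36 saturated miRs and the other HF+E2 arrays had 21 to 26, and the part of this code in the values was not tested.

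The mature sequences of the miRs on which the comparison turned are shown because several of them share a seed (bases 2 to 8, in capitals). The sequences are those of the array's annotation in the deposited table, and the positions given below are those of RefSeq for GRCm38.p6. The first set holds the myosin miRs, in which miR-208b and miR-208a-3p share a seed, and the seed of miR-499 differs from it only at base 8.
miR-208b: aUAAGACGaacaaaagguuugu
miR-208a-3p: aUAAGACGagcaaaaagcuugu
miR-499: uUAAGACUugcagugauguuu
The second set was higher in HF+E2 than in sham, with a shared seed in miR-221 and miR-222, and another in miR-195 and miR-497.
miR-199a-5p: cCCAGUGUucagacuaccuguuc
miR-214: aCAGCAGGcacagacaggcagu
miR-221: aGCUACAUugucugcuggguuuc
miR-222: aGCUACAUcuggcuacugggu
miR-195: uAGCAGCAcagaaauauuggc
miR-497: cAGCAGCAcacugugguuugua
miR-34b-5p: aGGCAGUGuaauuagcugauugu
miR-146b: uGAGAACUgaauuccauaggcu
miR-210: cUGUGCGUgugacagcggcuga
The third set was lower in HF+E2 than in sham, with a shared seed in miR-30c and miR-30e.
miR-29c: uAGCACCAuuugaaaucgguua
miR-30c: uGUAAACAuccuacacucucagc
miR-30e: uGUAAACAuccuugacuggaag
miR-26b: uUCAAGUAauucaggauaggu

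Of the 520 miRs, 44 were called between HF+E2 and sham at an adjusted p under 0.05 from limma and an absolute log2 fold change over 0.5 (8.46%). They were 27 miRs that were higher in HF+E2 (5.19%) and 17 that were lower (3.27%). Among the 251 unsaturated miRs that were not dim, 33 were called (13.1%). The higher miRs differed by 1.43-fold to 19.9-fold, and the lower miRs by 1.45-fold to 2.16-fold. Of the 44, 7 higher and 2 lower miRs were dim, and 2 (miR-199a-5p and the probe common to miR-199a-3p and miR-199b) were saturated on 1 of the 9 arrays. In fits that left out 1 of the 9 arrays, 25 of the 44 calls were made each time, 17 higher and 8 lower. Higher calls numbered 17 without sham 1, which held the lowest sham value of 23 of the 27 higher miRs. Lower calls numbered 10 without HF+E2 5, 9 without sham 2, 11 without sham 3 and 10 without sham 4. Without any scaling between arrays 20 miRs were called higher and 0 lower, with 17 of the 27 higher miRs among them. With the raw values scaled to their 75th percentile 21 were higher and 22 lower.

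**Figure D1:**
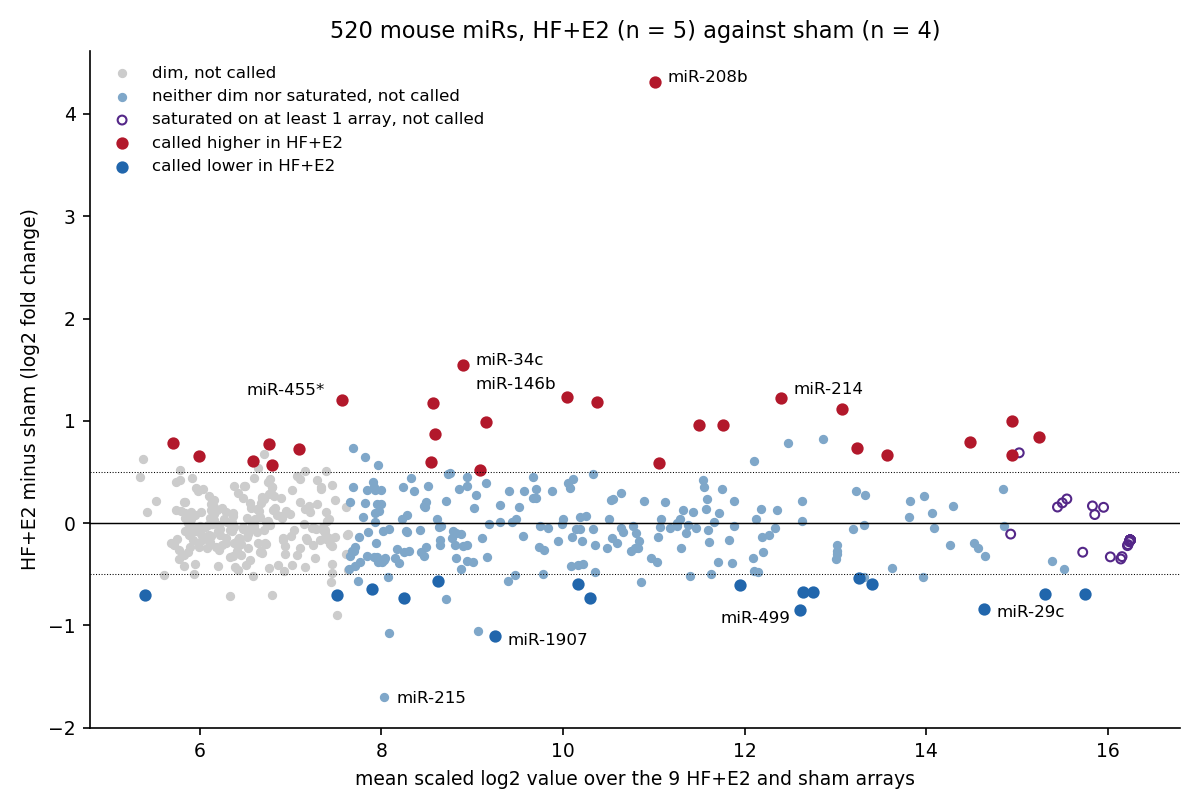
Log2 fold change of HF+E2 minus sham (vertical axis, dotted lines at 0.5 and -0.5) against the mean scaled log2 value over the 9 arrays (horizontal axis) for 520 miRs, with 1 point per miR. Of the 27 called higher miRs (red) and 17 called lower miRs (blue), 7 and 2 were dim. miR-208b stands apart at 4.32, and the 20 miRs saturated on all 9 arrays coincide at -0.17 at the upper end of the scale, without a call.

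The myosin miRs held the largest difference. miR-208b, encoded within the β-myosin heavy chain gene Myh7 (chr14:54975710-54975731, minus strand), measured 12.67, 12.66, 13.48, 12.68 and 13.18 log2 units in the HF+E2 mice, against 8.95, 9.10, 7.67 and 8.75 in the sham mice. The HF mice had 12.63, 13.20, 13.80, 14.17 and 14.83. Every HF+E2 and HF mouse lay more than 3 log2 units above the highest sham mouse. The log2 fold change of HF+E2 over sham was 4.32 (SE 0.38, 19.9-fold, adjusted p = 2.88e-06 from limma), and the two-sided exact permutation test over the 9 mice gave p = 0.00794, the smallest it can give. In the same fit HF minus sham was 5.11, and HF+E2 lay 0.79 below HF with a 95% interval of -1.55 to -0.03 and an adjusted p of 0.171 from limma, so a difference between HF+E2 and HF was not called.

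miR-499, from an intron of Myh7b on chromosome 2, fell in HF+E2. It measured 12.13, 12.22, 12.51, 12.27 and 12.03 in the HF+E2 mice, against 12.94, 13.25, 13.04 and 13.10 in the sham mice, and the groups did not overlap. Its log2 fold change was -0.85 (SE 0.13, adjusted p = 0.00079 from limma), beside -0.59 for HF minus sham. miR-208a comes from an intron of the α-myosin heavy chain gene Myh6 (chr14:54949060-54949142 for its hairpin, minus strand). Its 5p arm measured 12.31, 12.51, 12.48, 12.27 and 12.18 in the HF+E2 mice, against 12.60, 13.34, 13.09 and 13.04 in the sham mice. This arm fell by 0.67 log2 units (adjusted p = 0.0184 from limma), although the call was lost without HF+E2 5, sham 2 or sham 3, with adjusted p between 0.0502 and 0.0694. The 3p arm, the arm with the seed of miR-208b, was at -0.45 with an adjusted p of 0.167 from limma in HF+E2 and at -0.83 in HF, and HF+E2 minus HF was 0.37 with a 95% interval of -0.02 to 0.77. Of the 8 muscle miRs 1 was higher (5.19% of all miRs), 2 were lower (3.27% of all miRs) and 5 were not called, of which 3 (miR-1, miR-133a and miR-133b) were saturated and miR-206 was dim.

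**Figure D2:**
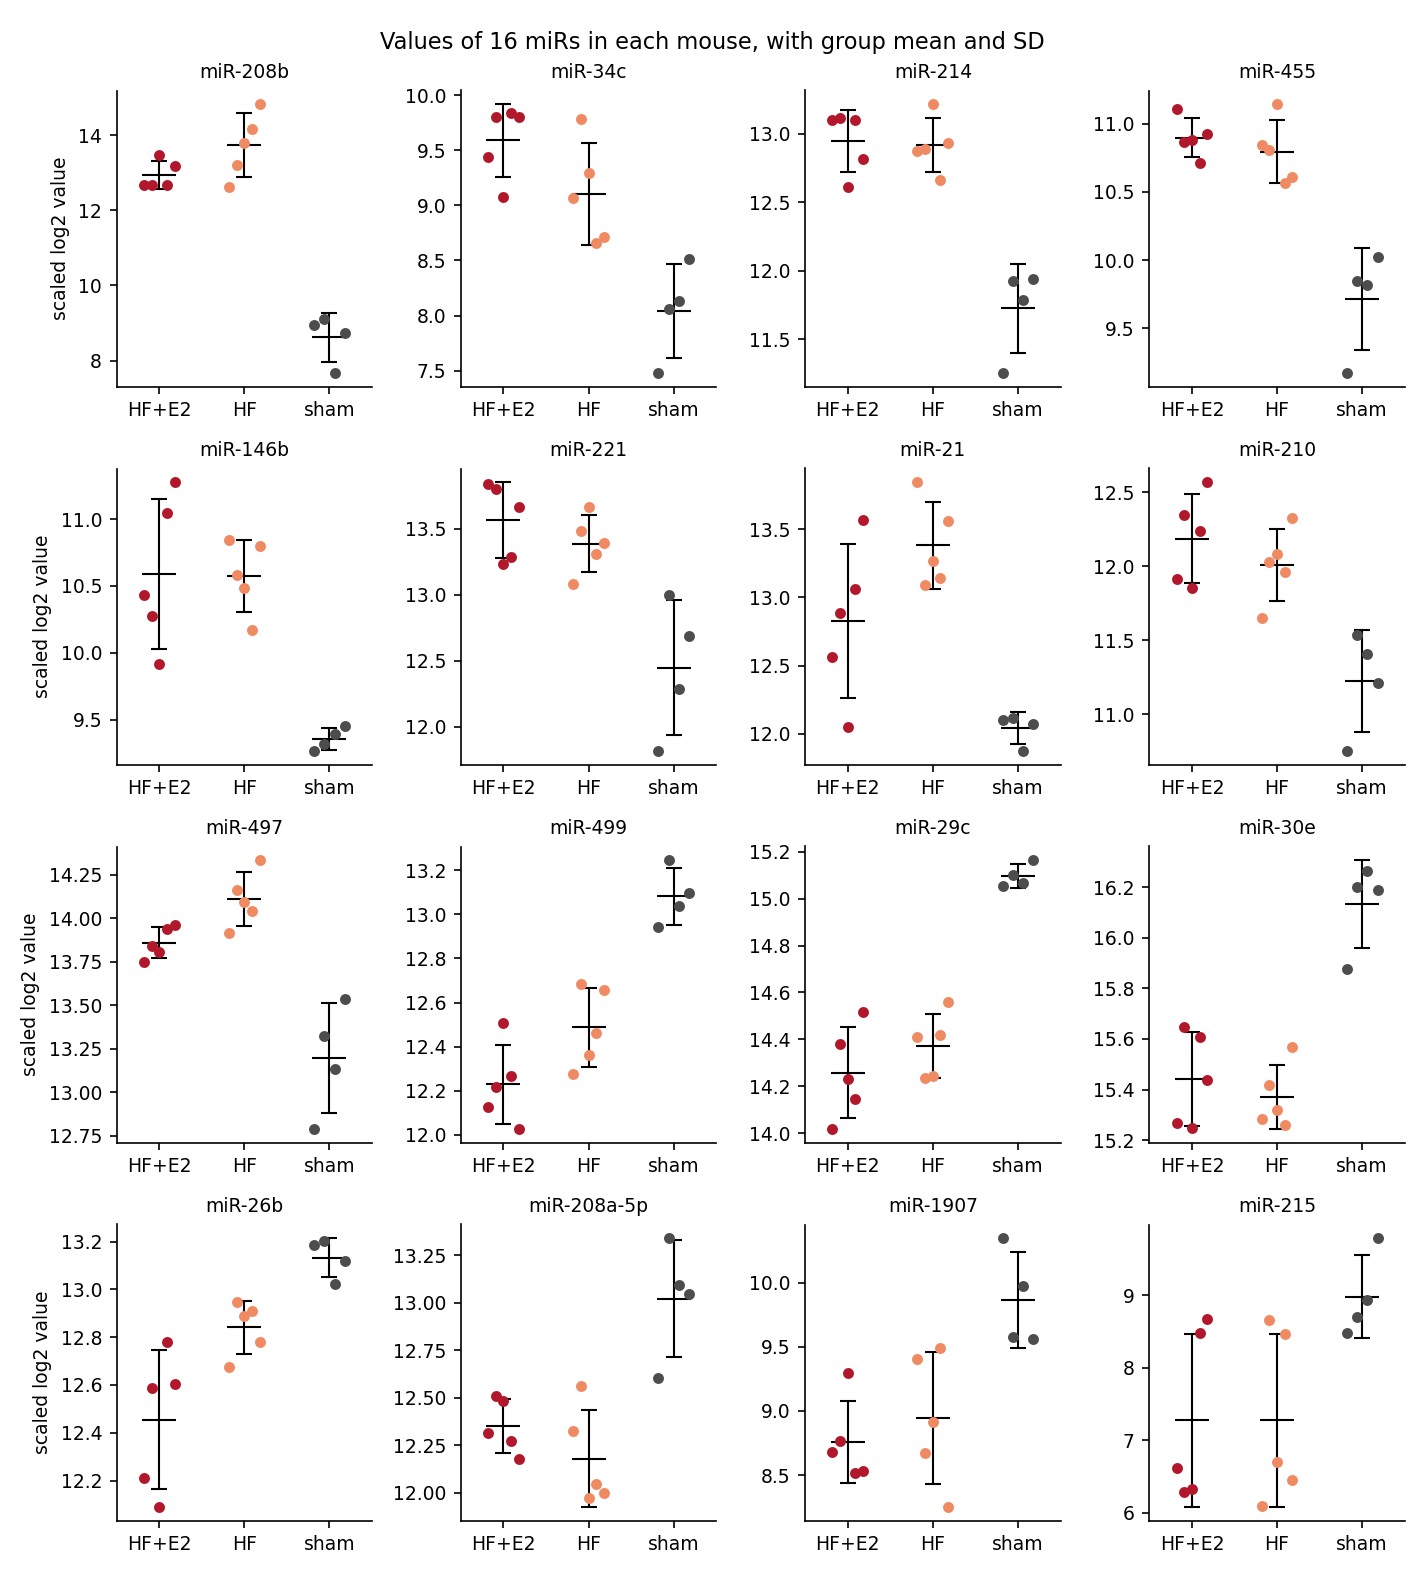
Scaled log2 values of 16 miRs in each mouse, with 1 panel per miR and its own vertical axis, which does not start at 0. Points are mice (5 HF+E2, 5 HF and 4 sham from left to right), and bars show the group mean and SD. For miR-208b, miR-34c, miR-214 and miR-455 the HF+E2 mice lie above all sham mice, for miR-499 and miR-29c below them, and for miR-215 the groups overlap.

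Of 10 measured miRs of mesenchymal cells and cartilage, a list chosen with earlier results of these data known, 8 were called higher (5.19% of all miRs) and 0 lower, with a median log2 fold change of 0.86 (the median over all 520 miRs was -0.05). miR-214, which is transcribed with miR-199a-2 in the Dnm3os RNA on chromosome 1, measured 13.10, 13.11, 12.61, 13.10 and 12.82 in the HF+E2 mice, against 11.25, 11.93, 11.79 and 11.94 in the sham mice. The lowest HF+E2 mouse was above the highest sham mouse, and the log2 fold change was 1.22 (SE 0.17, adjusted p = 0.00029 from limma). Its opposite arm, miR-214*, rose by 0.87. miR-199a-5p had 15.38, 15.59, 15.31, 15.28 and 15.36 in the HF+E2 mice, where HF+E2 1 was saturated, against 14.13, 14.43, 14.36 and 14.63 in the sham mice. Its log2 fold change was 1.00, miR-199b* rose by 0.79, and 1 probe that stands for both miR-199a-3p and miR-199b, whose mature sequence is the same, rose by 0.85.

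Both arms of miR-455, a miR of cartilage that lies in the collagen gene Col27a1, moved together. miR-455 measured 11.11, 10.87, 10.88, 10.71 and 10.92 in the HF+E2 mice, against 9.17, 9.85, 9.81 and 10.02 in the sham mice. Its log2 fold change was 1.19 (SE 0.17, adjusted p = 0.000425 from limma). miR-455*, which was dim, had 8.12, 8.00, 8.02, 8.03 and 8.36 in the HF+E2 mice, against 6.44, 7.01, 6.90 and 7.25 in the sham mice, and rose by 1.21. miR-140*, an arm of another cartilage miR within Wwp2, rose by 0.74. miR-140 was at 0.34 with an adjusted p of 0.207 from limma.

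miR-21, a miR of activated fibroblasts and inflammatory cells, was the member that narrowly missed the threshold. It measured 12.57, 12.88, 12.05, 13.06 and 13.57 in the HF+E2 mice, 13.85, 13.09, 13.27, 13.14 and 13.56 in the HF mice, and 12.10, 12.12, 11.87 and 12.08 in the sham mice. HF+E2 3 lay among the sham mice and the other HF+E2 mice above them. The log2 fold change was 0.78 in HF+E2 (SE 0.24, adjusted p = 0.051 from limma) and 1.34 in HF (adjusted p = 0.00159 from limma). HF+E2 minus HF was -0.56 with a 95% interval of -1.04 to -0.07, which was not called after adjustment (adjusted p = 0.137 from limma).

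The miR-34 family, which the tumor suppressor p53 induces and which is known to rise in stressed and aged hearts, split by gene. miR-34c measured 9.43, 9.80, 9.08, 9.84 and 9.80 in the HF+E2 mice, 9.06, 9.79, 9.29, 8.66 and 8.71 in the HF mice, and 7.48, 8.06, 8.14 and 8.51 in the sham mice. It rose by 1.55 log2 units in HF+E2 (SE 0.25, 2.92-fold, adjusted p = 0.000876 from limma), beside 1.06 in HF, and HF+E2 minus HF was 0.49 with a 95% interval of -0.01 to 0.98. miR-34b-5p, made from the same transcript (chr9:51103610-51103632, minus strand), had 8.78, 9.28, 8.58, 9.63 and 9.17 in the HF+E2 mice, against 6.98, 8.12, 8.08 and 8.47 in the sham mice. It rose by 1.18 (adjusted p = 0.0253 from limma), and was not called without HF+E2 2, HF+E2 4, HF+E2 5 or sham 1, with adjusted p between 0.0551 and 0.0737. In HF it was at 0.67 with an adjusted p of 0.105 from limma, and HF+E2 minus HF was 0.51 with an interval of -0.11 to 1.13, so that the treated and untreated failing hearts were not shown to differ. miR-34a, from a gene of its own, was at 0.21 in HF+E2 (adjusted p = 0.521 from limma) and at -0.11 in HF. The passenger arms miR-34b-3p and miR-34c* and the related miR-449a were dim, with 0.63, 0.40 and 0.05 log2 units, and were not called.

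miR-221 and miR-222, a pair from chromosome X that restrains the cell cycle inhibitor p27 and is known in vessels, rose together. miR-221 measured 13.84, 13.80, 13.23, 13.29 and 13.67 in the HF+E2 mice, against 11.81, 13.00, 12.29 and 12.68 in the sham mice. Its log2 fold change was 1.12 (SE 0.22, adjusted p = 0.00359 from limma). miR-222 lay between 11.59 and 12.09 in the HF+E2 mice, against 10.32, 11.46, 10.88 and 11.22 in the sham mice, and rose by 0.96. Sham 1 was the lowest sham mouse for both, and without it the changes were 0.91 and 0.74 and were still called. Neither was called with the test that the study's methods name. The pair miR-132 and miR-212-3p, which is known to rise in hypertrophy, was at 0.39 and 0.37 and was not called (adjusted p = 0.153 and 0.173 from limma).

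miR-210, the miR most tied to hypoxia, measured 11.91, 12.35, 11.85, 12.24 and 12.57 in the HF+E2 mice, against 10.75, 11.54, 11.41 and 11.21 in the sham mice. The groups did not overlap, and the log2 fold change was 0.96 (SE 0.19, adjusted p = 0.00431 from limma), beside 0.78 in HF.

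In the miR-15/16 family, which restrains the cell cycle, 2 of 6 members rose (5.19% of all miRs), both from 1 locus on chromosome 11. miR-497 measured 13.75, 13.84, 13.81, 13.94 and 13.96 in the HF+E2 mice, against 12.79, 13.32, 13.13 and 13.53 in the sham mice, and rose by 0.67 (adjusted p = 0.00808 from limma). miR-195 had 15.32, 15.29, 14.89, 15.45 and 15.27 in the HF+E2 mice, against 14.28, 14.75, 14.52 and 14.77 in the sham mice, and rose by 0.66. HF minus sham was 0.92 for miR-497 and 0.79 for miR-195, which was saturated on 1 HF array. miR-15a, miR-15b and miR-322, which have the same role, were at -0.03, 0.31 and -0.39 and were not called, and miR-16 was saturated.

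miR-146b and miR-511-3p, 2 miRs known from inflammatory cells, were also higher. miR-146b, which is induced by NF-κB and dampens Toll-like receptor signalling, measured 10.43, 10.27, 9.92, 11.05 and 11.28 in the HF+E2 mice, against 9.26, 9.32, 9.39 and 9.45 in the sham mice. The HF+E2 mice spread more widely than the sham mice (SD 0.56 in HF+E2 and 0.08 in sham) without overlap. The log2 fold change was 1.23 (adjusted p = 0.0034 from limma), and the test named in the study's methods did not call it. miR-146a, with the same seed, had 12.55, 12.88, 12.87, 13.39 and 14.44 in the HF+E2 mice, against 12.23, 12.50, 12.30 and 12.60 in the sham mice. HF+E2 5 was the highest mouse for both, and the value of miR-146a (0.82, adjusted p = 0.107 from limma) was not called. miR-511-3p, encoded within Mrc1, the macrophage mannose receptor gene, had 9.28, 9.48, 9.41, 9.78 and 10.00 in the HF+E2 mice, against 8.15, 8.70, 8.90 and 8.66 in the sham mice. It rose by 0.99 (adjusted p = 0.0222 from limma), a call that was lost without HF+E2 4, HF+E2 5 or sham 1, with adjusted p between 0.053 and 0.0652. Of the 6 white blood cell markers fixed for the comparison (miR-142-3p, miR-142-5p, miR-146a, miR-150, miR-155 and miR-223) none was called. The log2 of their summed intensity was 14.45 to 15.24 in HF+E2 and 14.36 to 14.84 in sham, and the part of such cells in the values of miR-146b and miR-511-3p was not tested.

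Of the other 9 higher miRs, 8 lost their call when some arrays were left out. miR-1247 was dim and rose by 0.77, with 6.87 to 7.39 in the HF+E2 mice and 6.00 to 6.52 in the sham mice. miR-184 was also dim and stood above the threshold in 3 of 5 HF+E2 mice and in 0 of 4 sham mice (adjusted p = 0.0334 from limma). With the sham values set to the lowest passing ones, its ratio was 1.32-fold. This is no strict lower bound, since the HF+E2 values below the threshold were used as measured. miR-379, of the imprinted Dlk1-Dio3 cluster, rose by 0.60 (adjusted p = 0.0436 from limma). It had 9.04, 8.74, 8.50, 9.12 and 8.68 in the HF+E2 mice, against 8.08, 8.04, 8.11 and 8.62 in the sham mice, where sham 4 overlapped the HF+E2 mice. The call of miR-379 was lost in 7 of the 9 fits that left out 1 array, all but those without HF+E2 3 or sham 4, with adjusted p between 0.0583 and 0.123. miR-130b, miR-23a*, miR-23b* and miR-3098-3p (all dim), both arms of miR-674 and miR-184 each lost their call without sham 1, and in 3 to 8 of the 9 fits in all, with adjusted p of up to 0.136 for miR-23a*.

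The lower miRs included members of the miR-29 and miR-30 families. miR-29c, which represses collagens and other matrix genes, measured 14.02, 14.38, 14.23, 14.15 and 14.52 in the HF+E2 mice, 14.41, 14.23, 14.24, 14.42 and 14.56 in the HF mice, and 15.05, 15.10, 15.07 and 15.17 in the sham mice. The 4 sham mice lay close together and above all the other mice. The log2 fold change of HF+E2 over sham was -0.84 (SE 0.13, 1.79-fold lower, adjusted p = 0.000544 from limma), and its opposite arm miR-29c* fell by 0.59. HF minus sham was -0.72 for miR-29c and -0.79 for miR-29c*. miR-29a and miR-29b, which share the seed of miR-29c, were saturated on all 9 and on 7 of the 9 arrays and gave no measure.

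miR-30c and miR-30e, which are known to restrain connective tissue growth factor, lie together in an intron of Nfyc on chromosome 4, and miR-30c has a second copy on chromosome 1. miR-30c measured 14.82, 15.09, 15.03, 15.03 and 15.03 in the HF+E2 mice, against 15.64, 15.83, 15.62 and 15.67 in the sham mice. It fell by 0.69 log2 units (SE 0.11, adjusted p = 0.00108 from limma). miR-30e measured 15.27, 15.65, 15.25, 15.61 and 15.44 in the HF+E2 mice, against 15.88, 16.20, 16.27 and 16.19 in the sham mice, and also fell by 0.69. For both the groups did not overlap. HF+E2 1 could not have overlapped, because its saturated spots read below every sham value of both miRs after scaling. Without HF+E2 1 the change was -0.65 for each. The call of miR-30e was lost with quantile normalization. miR-30a was at -0.28 (adjusted p = 0.179 from limma), saturated on 1 HF+E2 array. No array could measure miR-30b or miR-30d, both saturated throughout.

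miR-26b, from an intron of Ctdsp1, was lower in HF+E2 than in sham, and HF lay between. It measured 12.21, 12.59, 12.09, 12.78 and 12.61 in the HF+E2 mice, 12.68, 12.95, 12.89, 12.91 and 12.78 in the HF mice, and 13.19, 13.20, 13.02 and 13.12 in the sham mice. The sham mice lay above all others, and the HF+E2 and HF mice overlapped. HF+E2 minus sham was -0.68 (SE 0.14, adjusted p = 0.00682 from limma), and HF minus sham was -0.29 (adjusted p = 0.129 from limma). HF+E2 minus HF was -0.39 with a 95% interval of -0.68 to -0.10, which was not called after adjustment (adjusted p = 0.0757 from limma).

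miR-1907 had the lowest log2 fold change of the called miRs, -1.11 (SE 0.25, adjusted p = 0.01 from limma). It measured 8.68, 8.77, 9.29, 8.52 and 8.53 in the HF+E2 mice, against 10.35, 9.57, 9.98 and 9.56 in the sham mice. miR-338-3p, from an intron of the kinase gene Aatk, had 7.25, 7.65, 7.57, 7.85 and 7.76 in the HF+E2 mice, against 8.09, 8.23, 8.26 and 8.47 in the sham mice, and fell by 0.65 (adjusted p = 0.00665 from limma).

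The remaining lower calls depended on which arrays were in the fit. miR-3102 had 10.16, 9.90, 10.66, 9.61 and 9.54 in the HF+E2 mice, against 10.29, 10.79, 10.95 and 10.81 in the sham mice, with a log2 fold change of -0.74. miR-3102 was called without HF+E2 1, HF+E2 3 or sham 1 and not in the other 6 fits that left out 1 array (adjusted p between 0.0708 and 0.12). miR-374, which was dim, had 6.52, 7.51, 7.24, 7.62 and 7.12 in the HF+E2 mice, against 7.95, 8.04, 7.74 and 7.88 in the sham mice, with a log2 fold change of -0.70 and adjusted p up to 0.102 in those fits, of which 3 called it (without HF+E2 2, HF+E2 3 or HF+E2 4). miR-144*, of the red cell miR-144, was at -0.73 and was called only without HF+E2 4, with adjusted p up to 0.118 in the other 8 fits. miR-340-3p was below the threshold in all 5 HF+E2 mice, against 0 of 4 sham mice, so that the ratio of sham to HF+E2 was at least 1.08-fold. The call of miR-340-3p was lost without HF+E2 1, HF+E2 4, HF+E2 5, sham 2, sham 3 or sham 4, with adjusted p between 0.0564 and 0.0839. let-7d*, miR-328*, miR-1199* and miR-149 fell by 0.61, 0.60, 0.56 and 0.54 log2 units, and each lost its call without HF+E2 4, sham 2, sham 3 or sham 4, and in 6 to 8 of the 9 fits in all, with adjusted p of up to 0.132 for let-7d*.

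HF was set beside HF+E2 in the same fit, against the same sham mice, which both comparisons share. In that fit 43 miRs were called higher and 101 lower in HF than in sham (27.7% of the 520 in all), and 63 between HF+E2 and HF (12.1%), with 58 higher and 5 lower. In this paragraph dim was judged by the mean over all 14 arrays. Of the miRs called in HF, only 29 higher and 20 lower ones were neither dim nor saturated on any of the 14 arrays. The mean scaling constants of HF and sham lay 0.78 log2 units apart, and 34 of the 63 miRs called between HF+E2 and HF were dim and 24 were saturated on at least 1 array. The 5 highest and 5 lowest log2 fold changes of HF among the called miRs that were neither saturated nor dim were those of miR-208b, miR-21, miR-146b, miR-214 and miR-455* and of miR-215, miR-1907, miR-652*, miR-208a-5p and miR-345-5p. Of these, miR-455* was dim over the HF+E2 and sham arrays but not over all 14 arrays. miR-146b, miR-214 and miR-455* were at 1.22, 1.19 and 1.15 in HF and at 1.23, 1.22 and 1.21 in HF+E2. The 95% intervals of HF+E2 minus HF were -0.45 to 0.48 for miR-146b, -0.31 to 0.37 for miR-214 and -0.27 to 0.39 for miR-455*. miR-1907 was at -0.92 in HF and at -1.11 in HF+E2, with an interval of -0.69 to 0.31 for the difference.

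miR-345-5p was called between HF and sham and not between HF+E2 and sham. It measured 12.66, 12.88, 13.12, 12.93 and 12.86 in the HF+E2 mice, 12.07, 12.92, 12.49, 12.04 and 12.24 in the HF mice, and 12.73, 13.41, 13.32 and 13.29 in the sham mice. The log2 fold change against sham was -0.30 in HF+E2 (adjusted p = 0.347 from limma) and -0.84 in HF (adjusted p = 0.00534 from limma). HF+E2 minus HF was 0.54 with a 95% interval of 0.16 to 0.91, which missed the call (adjusted p = 0.056 from limma). miR-652*, from the Tmem164 locus, was at -0.56 in HF+E2 (adjusted p = 0.121 from limma) and at -0.86 in HF. miR-215, an intestinal and renal miR, had 6.61, 6.29, 6.33, 8.48 and 8.67 in the HF+E2 mice, 6.09, 8.65, 6.70, 8.46 and 6.45 in the HF mice, and 8.47, 8.70, 8.94 and 9.79 in the sham mice. Both HF groups fell into a low and a high set of mice, and the difference of -1.70 between HF+E2 and sham was not called (adjusted p = 0.0913 from limma).

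Across the 44 miRs called between HF+E2 and sham, HF+E2 minus HF lay between -0.79 and 0.51 log2 units, and the lowest adjusted p of that difference was 0.0511 from limma, for miR-374 (-0.57, 95% interval -0.96 to -0.18). miR-374 had 7.20 ± 0.43 in HF+E2 (SD, n = 5), 7.77 ± 0.24 in HF (n = 5) and 7.90 ± 0.12 in sham (n = 4). miR-30c was at -0.69 against sham in HF+E2 and at -0.46 in HF, where 2 arrays were saturated, and HF+E2 minus HF was -0.23 (adjusted p = 0.185 from limma). miR-1247 was at 0.77 in HF+E2 and at 0.44 in HF.

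**Figure D3:**
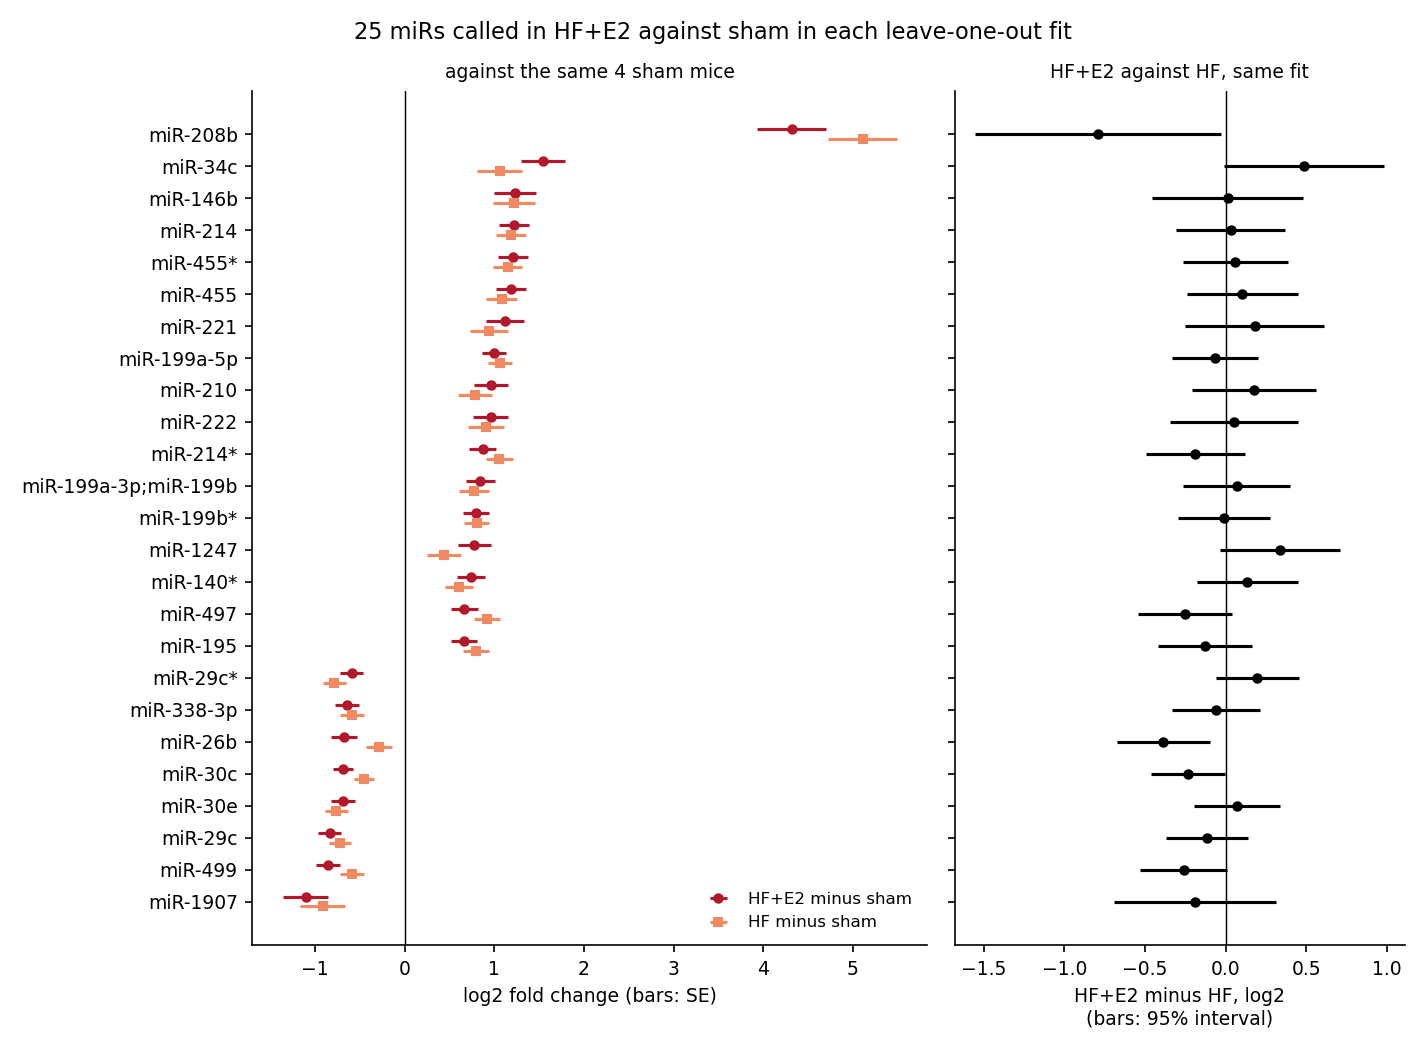
The 25 miRs called between HF+E2 and sham in each of the 9 fits that left out 1 array. On the left, log2 fold changes of HF+E2 minus sham (circles) and HF minus sham (squares) with their SE, which share the 4 sham mice, and on the right HF+E2 minus HF with its 95% interval. miR-208b is at 4.32 and 5.11, and the widest interval on the right is that of miR-208b, -1.55 to -0.03.

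The 63 miRs called between HF+E2 and HF were not called between HF+E2 and sham. Of the 5 that were lower in HF+E2 than in HF, miR-335-5p, from an intron of the imprinted gene Mest, measured 11.44, 11.43, 11.34, 11.80 and 11.66 in the HF+E2 mice, against 12.02, 11.87, 11.85 and 11.91 in the sham mice, and averaged 12.30 ± 0.20 in HF (SD, n = 5). The HF+E2 mice lay below all others, with HF+E2 minus HF at -0.77 (adjusted p = 0.00851 from limma) and HF+E2 minus sham at -0.38 (adjusted p = 0.0951 from limma). miR-98, a let-7 family member, and miR-322 were at -0.42 and -0.39 against sham and at -0.69 and -0.51 against HF, the last 2 called with adjusted p of 0.0195 and 0.0356 from limma. miR-129-5p, a miR studied in fibrosis and calcification of the heart, averaged 6.14 ± 0.24 in HF+E2 (SD, n = 5), 5.47 ± 0.37 in HF (n = 5) and 6.15 ± 0.13 in sham (n = 4). It was dim, HF+E2 minus sham was -0.01 (adjusted p = 0.978 from limma), and the lower value in HF went with the lower negative controls of the HF arrays, whose part in it was not tested.

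The lists of miRs, which were chosen with earlier results of these data known, are read here against the 8.46% called and the median of -0.05 over all 520 miRs. Of 25 measured miRs that other studies saw rise under pressure overload, 13 were called higher and 0 lower, with a median of 0.74. Of the 25, 6 were saturated on at least 1 array, among them miR-24, miR-23a and miR-125b-5p on all arrays, and 18 were neither saturated nor dim. Of the 4 members of the pairs miR-132 with miR-212 and miR-221 with miR-222, 2 rose (median 0.67). Of the 6 members of the miR-34 family, 2 rose (median 0.51). Of 6 miRs known to target the messenger of estrogen receptor α in human breast cancer cells, miR-221 and miR-222 rose, and miR-18a, miR-193b and miR-206 were at 0.49, 0.32 and 0.52 and not called, while miR-22 was saturated. Of 37 measured miRs of the Dlk1-Dio3 cluster, 26 of them dim, 1 was called, with a median of 0.21 and 31 of 37 values above 0. miR-300, miR-127 and miR-376a of this cluster were at 0.51, 0.43 and 0.64 (adjusted p = 0.0536, 0.0797 and 0.121 from limma).

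In the miR-29 and miR-30 families 3 of 8 fell (3.27% of all miRs), with a median of -0.25 over the 8, and the other 5 were saturated on at least 1 array. In the remaining lists no miR was called. These held 9 let-7 miRs (7 of them saturated on at least 1 array), 11 miRs of the cluster of miR-17 and of clusters related to it, and 10 of the cluster of miR-322 and miR-503. They held 43 miRs picked by name as repeat miRs of the Sfmbt2 gene, whose positions were not checked. They also held 5 of miR-129 and miR-335, 2 of miR-378, 7 of the miR-125, miR-99 and miR-10 families, and 8 of the miR-181 family. miR-106a and miR-542-3p of these had an adjusted p of 0.0451 and 0.0222 from limma and fold changes under the limit (-0.48 and -0.46). In the cluster of miR-322, miR-503 was at 0.48 and miR-351 at 0.33, while miR-322 was at -0.39, and none was called.

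**Figure D4:**
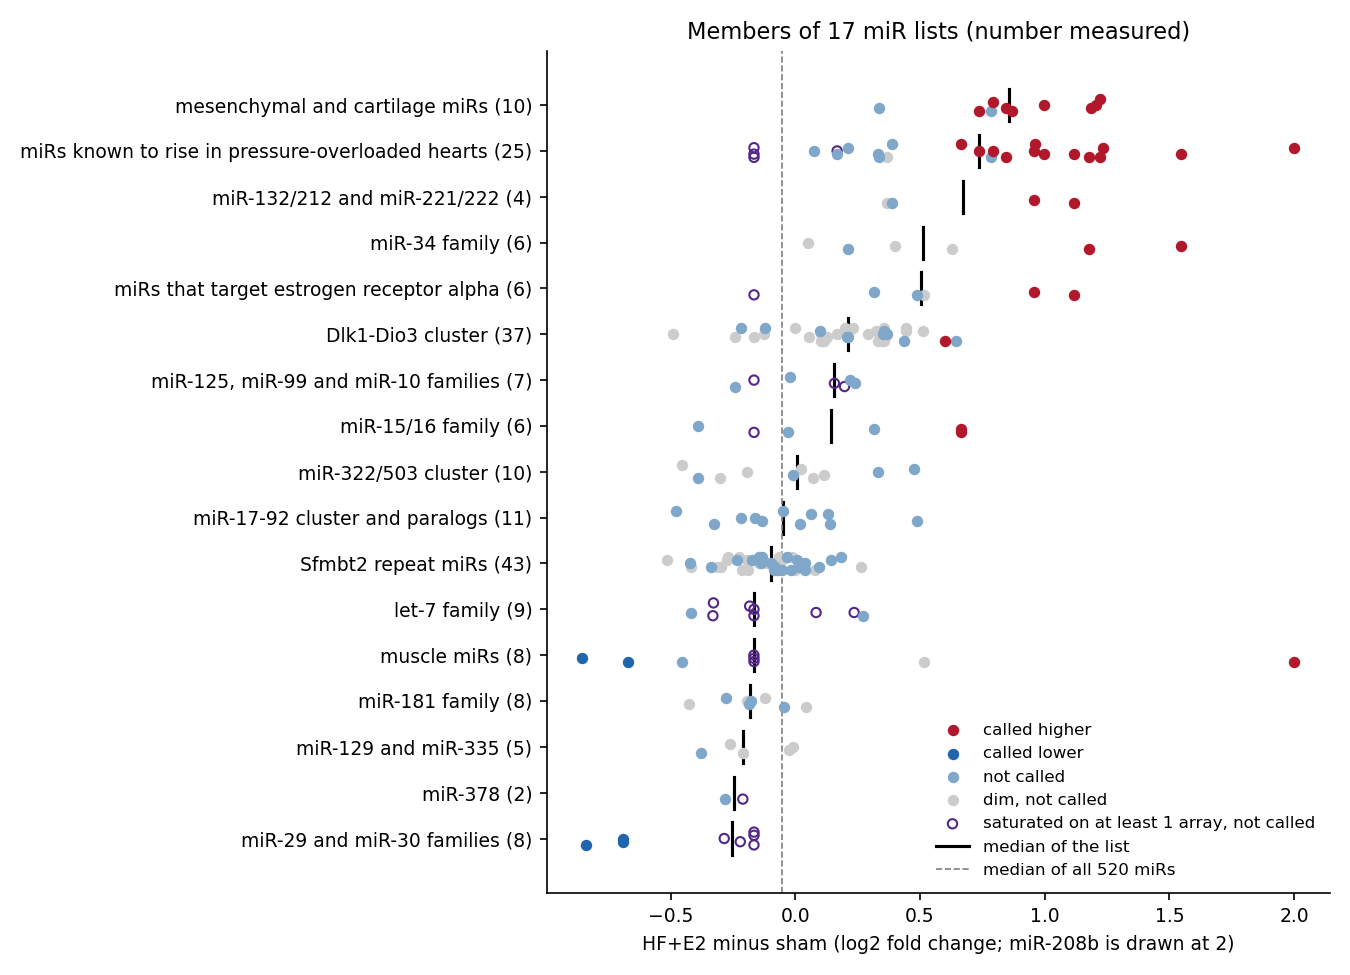
Log2 fold change of HF+E2 minus sham (horizontal axis) for each measured member of 17 lists (rows, number measured in brackets), with the median of each list (black line) and of all 520 miRs (dashed line, -0.05). The mesenchymal and cartilage miRs (median 0.86) and the miRs that rise under pressure overload (0.74) lie to the right, and the miR-29 and miR-30 families (-0.25) to the left. miR-208b, at 4.32, is drawn at 2.

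The LV identity of the RNA was checked with the markers fixed for it. The 4 cardiomyocyte miRs (miR-1, miR-133a, miR-208a-3p and miR-499) were above the threshold on all 14 arrays, and the log2 of their summed intensity was 16.90 to 17.81 in HF+E2, 16.78 to 17.25 in HF and 17.62 to 17.92 in sham, with miR-1 and miR-133a saturated. None of the markers of other cells was called, and some could not be measured. The endothelial miR-126-5p was at -0.15 (adjusted p = 0.584 from limma), and the smooth muscle miR-143 and miR-145 were saturated. Of 3 red blood cell miRs, miR-144 was at -0.56 (adjusted p = 0.215 from limma), with a summed level of 16.02 to 16.76 in HF+E2, 16.01 to 16.33 in HF and 16.49 to 16.89 in sham, a sum that includes miR-451, saturated on 6 of the 9 arrays. Of the liver, kidney and gut markers, miR-192, miR-194 and miR-215 were measured, at -0.41, -0.50 and -1.70. Their summed level was 11.74 to 12.15 in HF+E2 and 12.10 to 12.74 in sham, and the first 2 had adjusted p of 0.0473 and 0.0466 from limma with fold changes under the limit. Of 7 epithelial markers miR-141 and miR-203 were measured, of 4 neuronal markers miR-219-5p and miR-128, and of 3 pancreatic markers miR-216a, and none of these 5 was called. The summed level of the neuronal markers was 10.81 to 11.07 in HF+E2 and 11.03 to 11.56 in sham.

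Called miRs shared seeds and loci to a limited degree. The higher miRs had a median GC content of 50.0% and the lower ones of 43.5%, beside 47.9% over all 520 miRs and 50.0% over the 251 that were neither saturated nor dim. Seeds were compared only among the 404 miRs matched to RefSeq hairpins. Both members there of the seeds CCAGUGU (miR-199a-5p and miR-199b*) and GCUACAU (miR-221 and miR-222) rose. Of the 2 tested miRs with the seed GAGAACU, miR-146b was called and miR-146a was not. Of the 3 counted there with the seed GUAAACA, miR-30c and miR-30e fell, and miR-30a was saturated on 1 HF+E2 array. miR-30b and miR-30d of the same family are not in that count and were saturated throughout. The 2 miRs with the seed UAAGACG moved apart, with miR-208b at 4.32 and miR-208a-3p at -0.45.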

How the data were processed

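Left ventricular RNA of 14 male mice was measured on 1 array each, and groups and replicate numbers were taken from the labels. The authors deposited background-subtracted intensities of 3 spots per probe, not scaled between arrays. The deposited log2 values were made by the authors from these. They equal the mean of the log2 intensities of the 3 spots plus 1 constant per array, as was checked on the values. The authors kept mouse miRs above a threshold set from negative control probes on each array. Their notes give 524 such miRs, of which 520 were used here. The series' value table holds the same log2 values for the shared probes and was used for the 28 negative controls. The authors' own fold changes, p-values and false discovery rates were not used.

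Groups were compared by moderated linear models (limma 3.58.1, R 4.3.3) in 1 fit of all 14 arrays, with Benjamini-Hochberg adjustment over the 520 miRs. The thresholds are those of the methods, with their log read as log2. Single miRs were tested with an exact permutation test, two-sided. Labels do not say whether mice with the same number in different groups belong together, and mice were treated as unpaired. The number of arrays limits the precision. The limma p-values set a group difference against a spread between mice that was pooled over all 14 arrays and moderated across miRs. For a group with all values at or below the threshold, a lower bound of the ratio used each array's lowest miR that passed its threshold. Values of the other group were used as measured, so this bounds the ratio only where all of them passed. Alternatives were other scalings, filters, tests and blocks, and fits without 1 array. The fit was tested on simulated data. The miRs named are the 10 highest and 10 lowest called, up to 4 unsaturated members of each list by p, and the 5 highest and 5 lowest called in HF that were neither saturated nor dim over all 14 arrays. The remaining called miRs, and miR-335-5p, miR-98, miR-322 and others that text singles out, were named after their values were seen. Here the members and lists were chosen with earlier results of these data known. Figures were drawn with matplotlib 3.10.9. Mature sequences were matched to RefSeq hairpins, with 404 of 520 found.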

Additional observations from a re-analysis of the deposited data

Results flagged for a closer look

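The named miRs and the array measures gave 170 groups of 4 or 5 values in HF+E2 and sham, of which 10 held 1 sample far from the others by Dixon's ratio of the gap to the range. Chance flags about 1 in 20 groups, close to this share. The scaling constant of HF+E2 1 (-0.62), whose second code was 650, lay far below the other HF+E2 arrays (0.23 to 0.52), with a ratio of 0.749. HF+E2 1 was also low for miR-30c (14.82, others 15.03 to 15.09, ratio 0.762) and miR-351 (9.39, others 9.89 to 10.03, ratio 0.792). Sham 1 was low for miR-199b* (13.62, others 14.15 to 14.22, ratio 0.875) and miR-212-3p (6.77, others 7.40 to 7.42, ratio 0.967). Sham 3 was low for miR-98 (10.07, others 10.38 to 10.43, ratio 0.859). Sham 4 was high for miR-379 (8.62, others 8.04 to 8.11, ratio 0.884) and miR-142-5p (10.33, others 9.95 to 10.00, ratio 0.847). HF+E2 4 was high for miR-467e (6.60, others 5.80 to 6.01, ratio 0.737), and HF+E2 3 was low for miR-100 (12.85, others 13.37 to 13.48, ratio 0.823).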

How the results depend on the processing

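As reported, 27 miRs were called higher and 17 lower. The median log2 fold change of all miRs was -0.05 as reported, 0.11 without scaling between arrays and -0.12 with the 75th percentile. Without scaling the lower calls came to 0, and the 17 lower miRs then had log2 fold changes between -0.94 and -0.37. With Student's t-test and Benjamini-Hochberg adjustment 15 were higher and 11 lower, with miR-146b, miR-221 and miR-222 among the calls that were lost. With the replicate block 23 were higher and 11 lower, and 31 of the 44 calls were made again. Array weights gave 35 higher and 28 lower. In fits that left out 1 array the higher calls ranged from 17 to 31 and the lower from 9 to 20. Quantile normalization, the 75th percentile, the subtraction of negative controls, the 9 arrays alone and the removal of saturated and dim miRs kept both counts within 1.5 times. So did the code group as a random block, with a consensus correlation of -0.0086. Sham and HF+E2 arrays shared no code group, so that fit cannot separate code from treatment. Without a limit on the fold change, which can only add calls, 29 were higher and 23 lower. The 20 alternatives gave 1952 values over 99 miRs, of which 44 were called as reported. In those 44 miRs 0 values changed direction, and 191 fell below the threshold. In the other miRs 40 values passed it anew, and a change of direction was counted only where an alternative made a call. After the group means were removed, HF+E2 and sham arrays with the same number correlated at 0.39, -0.08, 0.01 and 0.37 across miRs, and HF and sham arrays at 0.46, 0.34, 0.20 and -0.10. For 7 of the 14 arrays, the array of the other groups that correlated best with it had the same number. The share that chance would give was not worked out. Not every pair correlated and the labels do not tie the numbers together, so the mice were kept unpaired, and a factor shared by some numbers was not tested. Saturation hides changes of 20 miRs on all 9 arrays, and values near the threshold understate changes of dim miRs. With 4 sham mice, 1 array decides many of the smaller calls.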
